A study of Mus musculus with 24 samples.

Results

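The E-protein genes Tcf3, Tcf4, and Tcf12 and the Id genes Id1, Id2, Id3, and Id4 were examined for peaks of the transcriptional regulators (TRs) ARID1B, FOXP1, and TCF7L2 in developing mouse cortex. A peak was taken when it overlapped the body of 1 of these 7 genes, as annotated by GENCODE vM21 on GRCm38 (mm10), or the 50 kb on either side. The 7 windows held 793 of the 314954 peaks on the main chromosomes in 6 peak lists. Peaks were divided by position. A peak was assigned to a promoter when it overlapped the 2000 bp before a transcription start (TSS) of any annotated transcript, and the remaining peaks lay in the gene body or in the flanks. Peaks were assigned by gene name and position alone, with no threshold on a measured value, but the 7 genes were proposed with earlier results of these data known.

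The tissue was cortex of wild-type mice on a CD1 background collected on embryonic days E15.5 or E18.5, with no mutation, transgene, or treatment in any group. ARID1B belongs to the BAF complexes that move nucleosomes, FOXP1 is a forkhead transcription factor, and TCF7L2 is an HMG-box factor of the Wnt pathway. Each TR and stage had 2 biological replicates of ChIP and 2 of input chromatin, 24 libraries in all, and each TR and stage gave 1 list, so no value below carries a spread between replicates. The lists were taken as calls on merged replicates, as the study's methods describe, but each is deposited with the first replicate only, and the files do not show which reads went in. The sample labels call the third antibody target TCF4, which is an older name of TCF7L2, and it is not the product of the gene Tcf4 described here. The cortex was bulk tissue, so a peak in few cells and a weak peak in many cells cannot be told apart.

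E-proteins are basic helix-loop-helix (bHLH) transcription factors expressed in most tissues. They bind the E-box, CANNTG, as homodimers or as heterodimers with tissue-restricted bHLH factors such as the neurogenins and NEUROD proteins, which drive neurogenesis in the cortex. Id proteins carry the helix-loop-helix but lack the basic region that contacts DNA, so they pair with E-proteins and hold them off DNA. Id genes are known targets of BMP signaling through SMAD proteins and are expressed in neural progenitors and glia. The balance between E-proteins and Id proteins is known to affect the timing of neuronal differentiation. Human TCF4 is the gene altered in Pitt-Hopkins syndrome.

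Outside promoters, 10 places in the windows had a peak in every list, and the sequences of 4 of them and of the Id1 promoter peak are shown. They include the highest ARID1B folds outside promoters, in Tcf12 and beside Id2, and a stretch of DNA shared by Id1 and Id4. Each is the 200 bp around the highest summit, read from the RefSeq copy of GRCm38.p6 on the plus strand. In the first 3, capitals mark E-boxes (CANNTG). The Tcf12 place lay in an intron, chr9:71974569-71974768, and the Id2 place downstream of the gene, chr12:25092932-25093131. The Id3 place lay downstream of the gene, chr4:136147877-136148076.
Tcf12 intron: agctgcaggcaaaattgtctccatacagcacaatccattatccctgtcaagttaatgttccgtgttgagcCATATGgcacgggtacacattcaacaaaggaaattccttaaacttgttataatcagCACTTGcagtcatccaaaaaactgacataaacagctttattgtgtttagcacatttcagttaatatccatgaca
Id2 downstream: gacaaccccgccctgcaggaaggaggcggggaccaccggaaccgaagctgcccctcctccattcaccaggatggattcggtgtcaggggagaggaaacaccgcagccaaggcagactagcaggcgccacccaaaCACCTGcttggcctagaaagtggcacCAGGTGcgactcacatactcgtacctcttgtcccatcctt
Id3 downstream: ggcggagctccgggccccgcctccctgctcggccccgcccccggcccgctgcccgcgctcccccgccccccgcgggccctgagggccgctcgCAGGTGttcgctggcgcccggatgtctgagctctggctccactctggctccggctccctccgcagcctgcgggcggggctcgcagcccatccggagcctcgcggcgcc
In the next pair, capitals mark the runs of at least 10 bases that both windows hold. The Id1 window, chr2:152735016-152735215, surrounded the promoter peak upstream of the TSS. The Id4 window, chr13:48227770-48227969, lay 33.4 kb upstream of Id4, inside the long noncoding genes A330033J07Rik and Gm36346, which are transcribed from the opposite strand.
Id1 upstream: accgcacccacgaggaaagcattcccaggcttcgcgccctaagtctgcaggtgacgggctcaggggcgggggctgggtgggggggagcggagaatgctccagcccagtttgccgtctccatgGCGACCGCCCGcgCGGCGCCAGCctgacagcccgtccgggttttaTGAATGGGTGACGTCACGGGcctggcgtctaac
Id4 upstream: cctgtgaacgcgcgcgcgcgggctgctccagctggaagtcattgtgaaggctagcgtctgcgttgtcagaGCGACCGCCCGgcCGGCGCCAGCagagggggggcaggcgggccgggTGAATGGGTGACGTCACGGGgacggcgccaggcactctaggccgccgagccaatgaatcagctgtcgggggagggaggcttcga
The shared runs were GCGACCGCCCG, CGGCGCCAGC, and TGAATGGGTGACGTCACGGG. They began at bases 123, 136, and 168 of the Id1 window and at bases 71, 84, and 117 of the Id4 window, so their order was the same and their spacing differed by 1 base. The longest run, of 20 bases, occurred at 2 positions on the main chromosomes of GRCm38, chr2:152735183-152735202 and chr13:48227886-48227905. Both lay in the windows shown. Of 19 pairs of windows compared between genes, 8 shared a run of at least 10 bases, and the next longest run had 12 bases. The longest run holds TGACGTCA, the palindrome known as the cAMP response element, and the second run holds GGCGCC, letters that occur in BMP-responsive elements bound by SMAD proteins.

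Depth differed between the lists, and the caller scaled the larger of ChIP and input to the smaller. The constant background, on that scale, recovered from the values of each list was 8.63, 6.90, and 6.43 reads in the E15.5 lists of ARID1B, FOXP1, and TCF7L2, in that order, and 6.13, 2.81, and 8.14 reads in the E18.5 lists. The weakest peak of a list had a summit of 2.48 to 2.94 times background in 5 lists but of 3.99 times background in FOXP1 at E18.5, so weaker FOXP1 peaks were not detectable at that stage. By estimates from the same values, in M reads, the FOXP1 ChIP library of E18.5 held 46.9 and was scaled by 0.561 to an input library of 26.3. The other ChIP libraries held 57.3 to 94.3. Fold enrichment below is the ratio at the summit given in the lists, with a pseudocount of 1 read, and its 95% interval is the exact Poisson interval of the reads at the summit. The intervals cover counting error only. Antibodies differ between TRs, so folds of different TRs stand side by side without a test. Where 3 values follow each other, they are those of ARID1B, FOXP1, and TCF7L2.

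All 7 genes had a promoter peak in every list, that is 7 of 7 in each. With promoters of protein-coding GENCODE transcripts only, it was 6 of 7 for FOXP1 at E18.5, without Id3. With RefSeq TSSs, it was 7 of 7 there too. Of 21951 protein-coding genes, 58.8% had an ARID1B, 61.8% a FOXP1, and 57.3% a TCF7L2 promoter peak at E15.5. At E18.5, the shares were 57.3%, 55.0%, and 61.2%. A promoter peak in all 6 lists was found at 51.8% of genes. Genes with many TSSs have more promoter sequence that a peak can meet, and the promoters of the 7 genes covered 2000 bp at Id1 and Id4 but 33650 bp at Tcf4. The fold of a gene is that of its strongest promoter peak, so a gene with more promoter peaks has more chances of a high value. Tcf4 had 20 promoter peaks of FOXP1 at E15.5, and the other 6 genes had 2 or 3 each. The median fold of the E-protein promoters was above that of the Id promoters in every list. The median of the 3 E-protein genes against the 4 Id genes was 8.10 against 5.17 for ARID1B, 13.7 against 10.4 for FOXP1, and 9.84 against 5.88 for TCF7L2 at E15.5. At E18.5, the medians were 9.26 against 5.75, 10.3 against 6.96, and 10.5 against 7.28. The values of the 2 families overlapped in every list except those of TCF7L2 at E15.5, where the lowest E-protein gene had 9.84 and the highest Id gene 8.49.

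**Figure D1:**
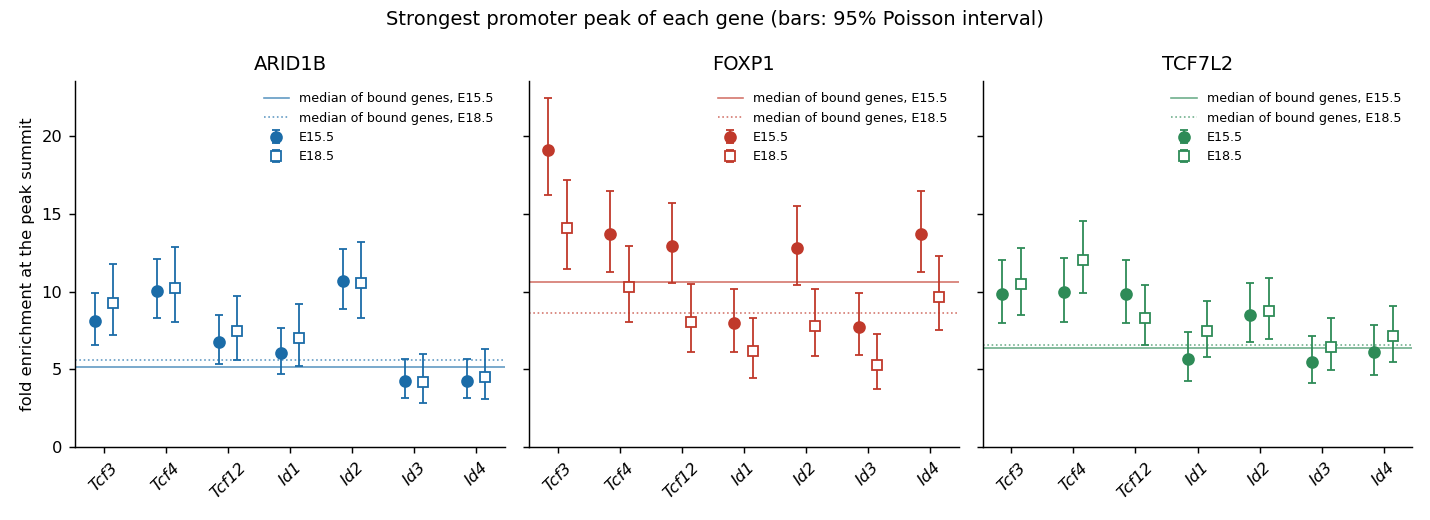
Fold enrichment at the summit of the strongest promoter peak (y axis) of each gene (x axis) for ARID1B, FOXP1, and TCF7L2, with filled circles for E15.5, open squares for E18.5, and bars for the 95% Poisson interval of the summit reads. Horizontal lines give the median of all protein-coding genes with a promoter peak, and Tcf3 and Tcf4 lie above the line in every list whereas Id3 lies below it in every list.

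Tcf3 encodes E12 and E47, the E-proteins best known from lymphocytes. Its strongest promoter peak had a fold of 8.10 (95% interval 6.54 to 9.94) for ARID1B, 19.1 (16.2 to 22.4) for FOXP1, and 9.84 (7.97 to 12.03) for TCF7L2 at E15.5. At E18.5, the folds were 9.26 (7.18 to 11.8), 14.1 (11.4 to 17.2), and 10.5 (8.52 to 12.8). It was the highest of the 7 genes for FOXP1 at both stages. Among protein-coding genes with a promoter peak in the same list, between 93.0% (ARID1B, E15.5) and 96.3% (FOXP1, E18.5) had a lower fold, so Tcf3 stood high for every TR. All 6 summits lay 191 to 248 bp upstream of the TSS at chr10:80433647. Of 5 groups of TSSs (positions within 500 bp of the next), 2 had a peak in all lists, and both of these met the same peaks. A noncoding TSS 17.4 kb into the gene had peaks of ARID1B and TCF7L2 at both stages, with folds of 3.21 and 3.48 in the earlier lists and 5.89 and 4.16 in the later ones, and none of FOXP1. Another noncoding TSS, 18.2 kb into the gene, had TCF7L2 peaks (3.06 and 2.85), and 1 TSS group had no peak.

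Tcf4 is expressed from many promoters, which give proteins with different N-termini. Its strongest promoter peaks had folds of 10.1 (8.30 to 12.1), 13.7 (11.2 to 16.5), and 9.95 (8.06 to 12.1) at E15.5. At E18.5, they had 10.2 (8.04 to 12.9), 10.3 (8.03 to 12.9), and 12.04 (9.91 to 14.5). Of genes with a promoter peak in the same list, 97.7%, 73.7%, and 93.6% were lower, then 96.7%, 70.2%, and 97.7%, so Tcf4 stood higher within the ARID1B and TCF7L2 lists than within those of FOXP1. These peaks were not at the same promoter. Of the 18 TSS groups of the gene, 17 had a peak in at least 1 list and 7 in all 6, although neighboring groups can meet the same peak. The outermost TSS was the group without a peak. A set of 3 promoter regions carried the high folds. The first had its highest summit 0.98 kb from the annotated 5′ end, the second 157 kb into the gene, and the third 250 kb into the gene.

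At the first region, ARID1B had folds of 6.95 (E15.5) and 7.29 (E18.5), FOXP1 13.7 and 10.3, and TCF7L2 9.11 and 8.54. At the second, ARID1B had 10.1 and 10.2, FOXP1 10.5 and 6.44, and TCF7L2 5.98 and 7.44. At the third, ARID1B had 6.68 and 7.57, FOXP1 10.1 and 6.002, and TCF7L2 9.95 and 12.04. Each TR thus had its highest fold at a different region, ARID1B at the second, FOXP1 at the first, and TCF7L2 at the third, and this was so at both stages. Counting error did not separate all of them. The 95% interval of ARID1B at the second region (8.30 to 12.1 at E15.5) overlapped that at the first (5.51 to 8.66). The FOXP1 intervals of the first region overlapped those of the second and the third at both stages. For TCF7L2 at E15.5, the third region (8.06 to 12.1) lay above the second (4.55 to 7.73) but overlapped the first (7.32 to 11.2), and at E18.5 it lay above the second (9.91 to 14.5 against 5.79 to 9.42) but overlapped the first (6.76 to 10.6).

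The other promoters of Tcf4 were weaker. A TSS group 3.94 kb from the 5′ end had folds of 4.37, 5.95, and 5.15, then 4.63, 4.68, and 5.58, and the group at 4.90 kb met the same peaks except that of FOXP1 at E18.5. The groups 176 and 178 kb into the gene had 4.73, 6.96, and 3.997 and 3.66, 4.81, and 3.06 at E15.5. At E18.5, they had ARID1B peaks of 5.05 at both and TCF7L2 peaks of 4.49 and 3.83, and only the latter had a FOXP1 peak (3.94). A noncoding group at 219.7 kb had 5.17, 5.19, and 3.37, then 5.33 for ARID1B and 3.17 for TCF7L2. The groups at 256 and 269 kb had peaks in 4 and 5 lists, of at most 4.30, and the group at 72.5 kb had 1 of FOXP1 at E15.5 (2.78) and 1 of ARID1B at E18.5 (3.65). The last 3 groups, all noncoding, had 1 peak each. FOXP1 at E18.5 therefore had no peak at the groups beyond the third region.

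Tcf12 encodes HEB, an E-protein of neural progenitors among other cells. Its strongest promoter peak had folds of 6.77 (5.35 to 8.46), 12.9 (10.5 to 15.7), and 9.84 (7.97 to 12.03) at E15.5. At E18.5, the folds were 7.43 (5.59 to 9.70), 8.06 (6.10 to 10.5), and 8.32 (6.57 to 10.4). They were lower than those of Tcf3 in 5 lists and the same in the TCF7L2 list at E15.5. Of genes with a promoter peak, 82.0%, 67.7%, and 93.1% had a lower fold, then 81.4%, 40.6%, and 76.0%, so Tcf12 was above the median of bound genes except for FOXP1 at E18.5. All summits lay 46 to 144 bp upstream of the TSS at chr9:72111871. Of 7 TSS groups, 3 at the 5′ end had a peak in every list, and all met the same peaks. An internal promoter 215 kb into the gene had folds of 4.10, 4.43, and 3.997 at E15.5. It kept peaks of ARID1B (5.19) and TCF7L2 (3.72) at E18.5 but none of FOXP1. The other 3 groups had no peak.

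Id1 encodes the Id protein best known as an early target of BMP signaling. Its strongest promoter peak had folds of 6.06 (4.72 to 7.67), 7.97 (6.14 to 10.2), and 5.67 (4.28 to 7.37) at E15.5. At E18.5, the folds were 7.01 (5.22 to 9.23), 6.15 (4.47 to 8.28), and 7.44 (5.79 to 9.42). None of these summits lay at the TSS (chr2:152736251). They lay 1008 bp (ARID1B, E18.5) to 1135 bp (FOXP1, E15.5) upstream, around the window printed above, whereas the strongest summits of the other 6 genes lay at most 649 bp from a TSS. For FOXP1, Id1 was low among genes with a promoter peak, with 30.8% lower in the earlier list and 19.8% in the later one, and for ARID1B it was above the median, with 69.7% and 75.8% lower.

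Id2 is expressed in progenitors and in neurons of several cortical layers. Its strongest promoter peak had folds of 10.7 (8.87 to 12.8), 12.8 (10.4 to 15.52), and 8.49 (6.76 to 10.5) at E15.5. At E18.5, the folds were 10.5 (8.29 to 13.2), 7.77 (5.85 to 10.1), and 8.76 (6.96 to 10.9). ARID1B had its highest promoter fold of the 7 genes here at both stages, and 98.2% and 97.1% of genes with an ARID1B promoter peak had a lower one. The ARID1B summits lay 541 and 649 bp upstream of the outer TSS (chr12:25097140), in peaks 4110 and 3950 bp wide. The strongest FOXP1 and TCF7L2 summits lay 7 to 181 bp upstream of the inner TSS (chr12:25096092), more than 1 kb away. FOXP1 and TCF7L2 also had peaks upstream of the outer TSS, with folds of 8.61 and 7.55, then 6.88 and 7.01, and ARID1B had a peak of 5.61 near the inner TSS at E15.5. All 3 TRs thus had peaks upstream of the outer TSS, and only the position of the strongest one differed.

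Id3 is a BMP target expressed with Id1 in many tissues. It had the lowest or joint lowest promoter folds of the 7 genes in every list, at 4.28 (3.17 to 5.66), 7.72 (5.92 to 9.90), and 5.46 (4.10 to 7.13) at E15.5. At E18.5, the folds were 4.21 (2.86 to 5.98), 5.27 (3.73 to 7.25), and 6.46 (4.93 to 8.32). Between 11.2% (FOXP1, E18.5) and 46.8% (TCF7L2, E18.5) of bound genes were lower, so Id3 was under the median of bound genes for all TRs. The FOXP1 peak of E18.5 lay downstream of the coding TSS of GENCODE (chr4:136143497). It met the regions before the noncoding TSSs at chr4:136143864 and chr4:136144974. With RefSeq TSSs, Id3 kept a FOXP1 promoter peak at E18.5.

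Id4, an Id gene of neural progenitors and astrocytes, differed from Id3 in FOXP1. Its folds at E15.5 were 4.28 (3.17 to 5.66) for ARID1B, equal to Id3, 13.7 (11.2 to 16.5) for FOXP1, and 6.08 (4.64 to 7.84) for TCF7L2. At E18.5, they were 4.49 (3.09 to 6.31), 9.68 (7.52 to 12.3), and 7.12 (5.50 to 9.06). The FOXP1 intervals of Id4 and Id3 did not overlap at either stage, whereas those of ARID1B and TCF7L2 did. Of genes with a promoter peak, 73.7% and 62.9% were lower than Id4 for FOXP1 but 24.7% and 20.6% for ARID1B. Under a stricter limit of −log10 p of at least 15, the ARID1B promoter peaks of Id3 and Id4 were lost at both stages, and so were the FOXP1 peaks of Id1 and Id3 at E18.5.

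The 7 windows held 160, 176, and 91 peaks at E15.5. At E18.5, they held 166, 46, and 154. Of all 793, 168 overlapped a promoter of the gene itself, 88 a promoter of a neighbor, 42 had their summit in an exon, 319 lay in introns, and 176 in the flanks. Tcf4 held most of the intronic peaks. Its window of 445.7 kb had 91, 106, and 35 peaks, then 102, 9, and 80. The window of Tcf12, 369.2 kb long, had 14, 11, and 6 peaks, then 13, 4, and 6. Per 100 kb, this was 20.4 peaks of ARID1B at Tcf4 and 3.79 at Tcf12 at E15.5, beside a median of 3.11 over protein-coding genes. The 2 long genes thus differed in peak density as well as in number. By number of peaks, the rank of Tcf4 among 21951 protein-coding genes was 8 for ARID1B, 5 for FOXP1, and 17 for TCF7L2 in the E15.5 lists. In the E18.5 lists, it was 5, 808, and 11. By peaks per 100 kb, 99.7%, 99.8%, and 91.7% of these genes were below Tcf4 at E15.5, then 99.8%, 58.3%, and 97.5% at E18.5.

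**Figure D2:**
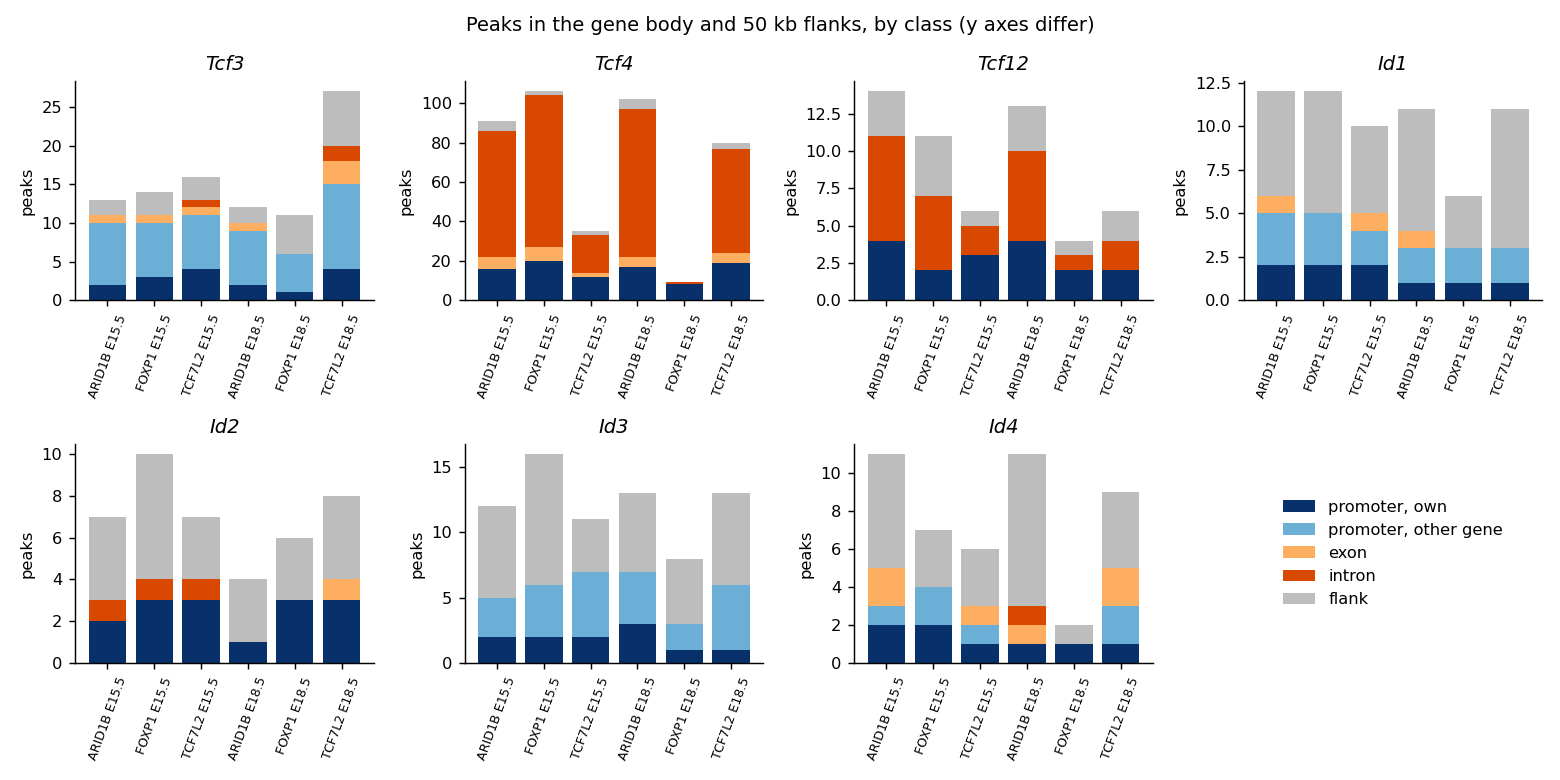
Number of peaks (y axis, which differs between panels) in the body and 50 kb flanks of each gene for the 6 lists (x axis), with the class of the peak in color. Intronic peaks make up most of the Tcf4 bars except for FOXP1 at E18.5, where 9 peaks remain against 106 at E15.5.

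The windows of the Id genes were short, 101.2 to 104.8 kb, and most of the peaks in them were flanking. Together they held 42, 45, and 34 peaks, then 39, 22, and 41. Id3 had the most of the 4 in 5 lists and as many as Id1 in the ARID1B list of E15.5, with 12, 16, and 11 peaks, then 13, 8, and 13. Id1 had 12, 12, and 10 peaks, then 11, 6, and 11. Id4 had 11, 7, and 6 peaks, then 11, 2, and 9, so that FOXP1 at E18.5 was left with its promoter peak and 1 other. Id2 had 7, 10, and 7 peaks, then 4, 6, and 8. The window of Tcf3, which lies among other genes, held 13, 14, and 16 peaks, then 12, 11, and 27.

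Along Tcf4, peaks were unevenly placed. Over the 6 lists, successive stretches of 50 kb from the 5′ end held 47, 27, 14, 93, 84, and 97 summits, and the rest of the gene held 43. The longest stretch of the gene body with no summit in any list ran from 127 to 153 kb from the 5′ end, and it ended before the second promoter region. In Tcf12, the longest such stretch was 77.2 kb and began 1.19 kb from the 5′ end. An intronic place 228 kb into Tcf4, chr18:69570784-69571508, was the only place of this gene outside promoters with a peak in all 6 lists, with folds of 4.19, 7.21, and 4.21, then 5.19, 4.09, and 3.61. Another intronic place, 265 kb into Tcf4 and chosen after its values were seen, had folds of 6.95, 7.09, and 6.19 at E15.5. At E18.5, ARID1B had 7.29 there and TCF7L2 7.33, with no FOXP1 peak.

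**Figure D3:**
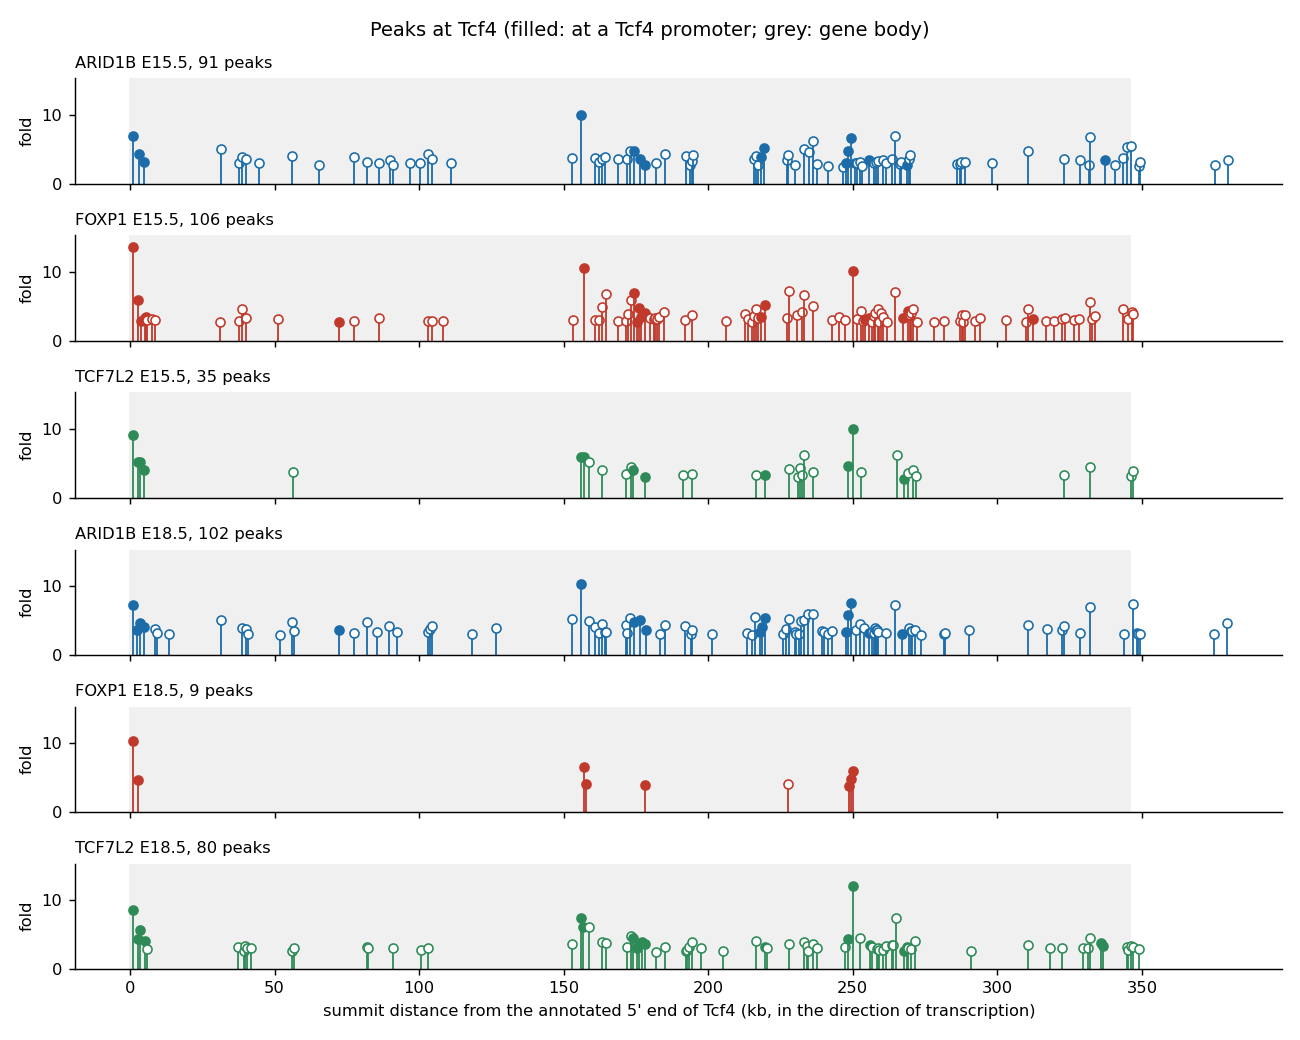
Peaks at Tcf4 in the 6 lists, plotted by the distance of the summit from the annotated 5′ end (x axis, kb) and fold enrichment (y axis), with filled points for promoter peaks, open points for other peaks, and grey for the gene body. The 3 tall promoter regions stand near 0, 157, and 250 kb, and of the 9 FOXP1 peaks at E18.5, 8 are at promoters.

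Between the stages, the windows held about as many ARID1B peaks, more TCF7L2 peaks at E18.5, and fewer FOXP1 peaks, but whole lists differed in length too. The ratio of E15.5 to E18.5 peaks was 0.591 in the windows and 0.620 in the whole list for TCF7L2, and 3.83 and 2.58 for FOXP1. With each list cut to its 24872 strongest peaks, the windows held 64 and 63 TCF7L2 peaks and 47 and 46 FOXP1 peaks, so neither difference remained in the windows as a whole. At Tcf4, the FOXP1 count fell 11.8-fold, from 106 to 9, while the whole list was 2.58 times shorter. All 9 peaks overlapped a FOXP1 peak of E15.5, and 6 of the 106 (5.66%) overlapped one of E18.5, beside 34.2% of all FOXP1 peaks. The scale of the E18.5 list moved with this difference. Of the 106 peaks, 68 (64.2%) lay under the lowest summit over background that the E18.5 list held, beside 35.8% of all FOXP1 peaks at E15.5. Of the 38 above it, 6 (15.8%) overlapped a peak of E18.5, beside 51.2% in the genome. With the lists cut to the same length, Tcf4 had 16 FOXP1 peaks in the earlier list and 9 in the later one. The part of depth and scaling in the difference that was left was not tested.

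At the other genes, FOXP1 peaks went from 14 to 11 at Tcf3, 11 to 4 at Tcf12, and 12 to 6 at Id1. They went from 10 to 6 at Id2, 16 to 8 at Id3, and 7 to 2 at Id4. These are counts from lists of unequal length. With lists of equal length, the 7 windows held 47 and 46 FOXP1 peaks, and Tcf4 held 16 and 9 of them. The other genes together thus held no fewer at E18.5 than at E15.5. Every FOXP1 peak of E18.5 in the 7 windows, 46 of 46, overlapped one of E15.5, beside 96.3% in the genome. ARID1B peaks of E15.5 overlapped one of E18.5 in 117 of 160 cases (73.1%), and the genome value was 78.2%. Of ARID1B peaks of E18.5, 76.5% were matched at E15.5, beside 85.5%. For TCF7L2, 92.3% of E15.5 peaks were matched at E18.5, beside 95%, and 51.3% of E18.5 peaks at E15.5, beside 56.5%. TCF7L2 peaks went from 35 to 80 at Tcf4 and from 16 to 27 at Tcf3, and by at most 3 in each of the other windows, while the whole list went from 32992 to 53173. With lists of equal length, Tcf4 had 23 and 22 TCF7L2 peaks, so the difference there was not seen.

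Peaks of the 3 TRs overlapped in part. At E15.5, 55 of 205 loci (26.8%), each a union of overlapping peaks, had all 3 TRs, beside 30.1% of all loci. At E18.5, it was 34 of 207 (16.4%), beside 22.9%. At Tcf4, it was 22 of 124 loci (17.7%) at the earlier stage and 7 of 122 (5.74%) at the later one. At the Id genes, the share at E15.5 was 6 of 15 at Id1, 5 of 9 at Id2, 8 of 14 at Id3, and 3 of 10 at Id4. At E18.5, it was 6 of 13, 2 of 5, 6 of 15, and 2 of 12. Loci of ARID1B and FOXP1 without TCF7L2 numbered 34 at Tcf4 in the earlier lists and 0 in the later ones, whereas loci of ARID1B and TCF7L2 without FOXP1 numbered 1 and 37. The low background of the FOXP1 list at E18.5, scaled to its input, moved with these counts.

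Over both stages, peaks of the 6 lists fell into 239 places, of which 29 (12.1%) had a peak in every list, beside 17.7% of all places. Of the 49 places at the Id genes, 15 (30.6%) were in every list, and of the 147 at Tcf4, 5 (3.40%). Tcf3 had 6 of 28 and Tcf12 3 of 15. A further 16 places at Tcf4 (10.9%) had a peak in every list but FOXP1 at E18.5, beside 7.06% of all places. By class, 10 of 37 places at a promoter of the gene itself were in every list, 9 of 21 at a promoter of a neighbor, 8 of 44 in the flanks, 2 of 123 in introns, and 0 of 14 in exons.

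The highest fold outside promoters was that of ARID1B in the Tcf12 intron, 137 kb into the gene, at chr9:71974255-71976620. ARID1B had folds of 15.7 (13.5 to 18.2) and 14.6 (11.9 to 17.7) there, more than at the Tcf12 promoter (6.77 and 7.43), and the intervals did not overlap. Of all ARID1B peaks, 99.7% and 99.2% were lower. FOXP1 had 8.48 and 3.79, and TCF7L2 had 4.62 and 5.14. The FOXP1 value at E18.5 was near the bottom of its list, with 2.00% of peaks lower. A place 21.4 kb upstream of Tcf12, chr9:72132759-72133779, where no gene is annotated, had folds of 5.17, 12.02, and 8.59, then 7.85, 7.03, and 8.65. FOXP1 and TCF7L2 had folds there close to those at the Tcf12 promoter (12.9 and 9.84, then 8.06 and 8.32), with overlapping intervals.

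Downstream of Id2, the place at chr12:25092026-25093648, 4.11 kb from the 5′ end of the gene, was high for ARID1B, with 9.88 (8.14 to 11.9) and 9.40 (7.30 to 11.9). FOXP1 had 5.95 and 5.85, and TCF7L2 4.31 and 4.82. Its window, printed above, held 2 E-boxes, both CAGGTG on 1 strand or the other. Of all peaks in the same list, 97.3% and 95.4% were lower than this place for ARID1B, 74.5% and 51.5% for FOXP1, and 49.4% and 72.8% for TCF7L2, so ARID1B stood highest within its own list.

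Id3 had places in every list at 2.99 kb upstream and 4.48 kb and 16.7 kb downstream of its 5′ end. The place at 4.48 kb, chr4:136147459-136148201, had folds of 4.90, 9.62, and 6.19, then 7.57, 7.77, and 7.12. These values were above those of the Id3 promoter in all 6 lists (4.28, 7.72, and 5.46, then 4.21, 5.27, and 6.46), but the 95% intervals overlapped in each. Its window was 81.5% G and C. The place at 2.99 kb had 4.81, 5.32, and 5.04, then 6.17, 5.12, and 5.47. The place at 16.7 kb had 4.28, 8.10, and 3.58, then 3.79, 5.56, and 3.72.

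The place 33.4 kb upstream of Id4, chr13:48227057-48228464, had folds of 7.57 (6.06 to 9.35), 9.49 (7.48 to 11.9), and 6.40 (4.91 to 8.20) at E15.5. At E18.5, they were 6.87 (5.10 to 9.07), 8.06 (6.10 to 10.5), and 6.57 (5.03 to 8.44). ARID1B was higher there than at the Id4 promoter (4.28 and 4.49), without overlap of the intervals at E15.5 only. FOXP1 was lower there than at the promoter, with overlapping intervals. The 20-base run shared with Id1 lay within 100 bp of the summit in 5 of the 6 lists at Id4, all but TCF7L2 at E15.5, and in all 6 at Id1. No summit window elsewhere could hold the run, since it occurs at only these 2 positions on the main chromosomes. TGACGTCA was in 2, 2, and 1 summit windows of the members (1.25%, 1.14%, and 1.10%), beside 0.478%, 0.748%, and 0.97% of all, and in 3, 2, and 2 at E18.5 (1.81%, 4.35%, and 1.30%), beside 0.481%, 1.33%, and 0.686%. All of these were at Id1 or Id4 except 1 at Tcf4, an ARID1B peak of E18.5. TGACGTCA was picked from the run found in the Id1 and Id4 windows. Its higher share in the members was therefore built in and is not a result. Near Id1, the places 28.4 kb and 42.8 kb upstream lay in H13, the former over an exon. H13 encodes the signal peptide peptidase. The former had folds of 5.61, 9.62, and 5.35, then 6.73, 6.30, and 6.79. The latter had 2.86, 5.19, and 3.27, then 3.65, 3.94, and 4.49.

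**Figure D4:**
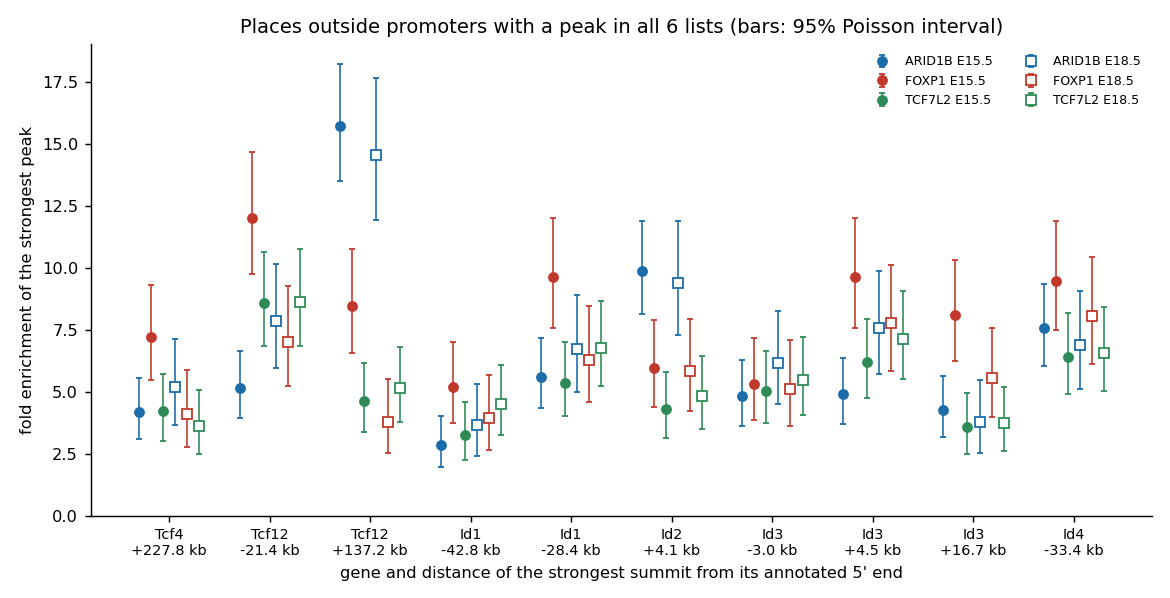
Fold enrichment (y axis) of the strongest peak of each list at the 10 places outside promoters with a peak in all 6 lists, labeled by gene and distance from its annotated 5′ end (x axis), with bars for 95% Poisson intervals. ARID1B has the highest points at the Tcf12 intron (15.7 and 14.6) and downstream of Id2 (9.88 and 9.40, the latter with an interval that overlaps that of FOXP1), whereas FOXP1 at E15.5 is the highest point at 7 of the other 8.

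The letters of the E-box were common in all peaks. Motifs were searched on both strands, and CAGCTG and CAGGTG are themselves forms of CANNTG. A CANNTG was in the 200 bp around 121 of the 160 ARID1B summits in the windows at E15.5 (75.6%), beside 74.6% of all ARID1B summits. For FOXP1 it was in 71.6%, beside 68.6%, and for TCF7L2 in 69.2%, beside 60.8%. At E18.5, the shares were 75.9% beside 73.6%, 60.9% beside 56.9%, and 77.9% beside 65.2%. The forkhead letters TGTTTAC were in 2.84% of FOXP1 summits in the windows in the earlier list and 4.35% in the later one, beside 2.89% and 2.28%. The TCF/LEF letters CTTTGAT were in 2 of 91 and 3 of 154 TCF7L2 summits (the latter 1.95%), beside 2.36% and 2.58%. GGCGCC was in 9.38%, 9.66%, and 15.4% of the summit windows at E15.5, beside 6.10%, 7.45%, and 12.5% of all. In the later lists, it was in 6.63%, 28.3%, and 11.04%, beside 6.17%, 13.9%, and 8.94%, and the FOXP1 share there rests on 13 of 46 windows. Windows of several lists cover the same DNA and are not independent.

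In RefSeq's promoters of GRCm38.p6 (250 bases before to 50 after a start), 5 of the 7 genes had an entry, all but Id1 and Tcf4. A CANNTG was in those of Tcf3, Id2, and all 3 of Tcf12, and in none of Id3 and Id4, beside 72.3% of 32851 promoters. CAGCTG was in that of Id2 and in 1 of Tcf12, beside 16.3%, and GGCGCC in those of Id2 and Id4, beside 11.9%.

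Several protein-coding neighbors in the windows had promoter peaks in every list. In the window of Tcf3, these were Mex3d, an RNA-binding protein, Mbd3, a subunit of the NuRD complex, and Uqcr11, a subunit of respiratory complex III. Mex3d had folds of 5.88, 13.9, and 8.17, then 6.17, 10.9, and 6.24, and Uqcr11 had 3.48, 9.999, and 4.94, then 5.05, 8.95, and 4.6. Mbd3 had 8.55, 19.2, and 11.3, then 9.12, 17.5, and 11.8, higher than those of Tcf3 in 5 lists. Mcts2, beside Id1, had 4.81, 12.4, and 5.98, then 5.89, 7.77, and 5.91, and E2f2, a cell cycle factor beside Id3, had 4.37, 6.33, and 5.77, then 3.51, 5.56, and 4.49. Cox4i2, beside Id1, had a FOXP1 peak at E15.5 (2.91) and no other. Noncoding neighbors with a promoter peak in at least 1 list numbered 5 of 5 at Tcf3, 3 of 5 at Id4, 1 of 3 at Id1, and 1 of 1 at Id3. At Tcf4, Tcf12, and Id2, it was 0 of 1, 0 of 15, and 0 of 2. Those with a peak in every list numbered 3 at Tcf3, 0 at Id4, and 1 each at Id1 and Id3. The share over all noncoding genes was not computed.

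By promoter folds over the 6 lists, the genes most like each member were found among 11376 with a promoter peak in all lists, as the smallest root mean square difference of log2 fold. They were Fbxw7, Suds3, and Hnrnpa0 for Tcf3 (0.06 to 0.08), Kmt2c, Ypel3, and Fastk for Tcf4 (0.08 to 0.10), and Cited2, Fth1, and Copg2 for Tcf12 (0.09). For the Id genes, they were Map6, Zfp521, and Ppp1r2 for Id1 (0.09 to 0.11), Gtf3c6, Bcar1, and Polg2 for Id2 (0.09 to 0.10), Pdgfa, Sh3pxd2a, and Nes for Id3 (0.06 to 0.07), and Ube2d2a, Clns1a, and Leng1 for Id4 (0.07 to 0.08). None of the 7 was among the 3 genes most like another of them.

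Genes that work with E-proteins and Id proteins were taken from 3 lists. Of 33 tissue-restricted bHLH partners of E-proteins, 9 (27.3%) had a promoter peak in all 6 lists, beside 51.8% of genes, and 8 (24.2%) in none. List by list, they were not below all genes throughout. The shares were 51.5%, 63.6%, and 60.6%, beside 58.8%, 61.8%, and 57.3%, then 51.5%, 36.4%, and 72.7%, beside 57.3%, 55.0%, and 61.2%, and the lowest was that of the FOXP1 list of E18.5, the one scaled to the smallest library. Neurod2, a factor of cortical excitatory neurons, had the highest mean fold (9.15). Those with none included Myod1, a factor of muscle, but also Neurog3, a neurogenin, so they were not muscle factors alone. Of 25 genes of the BMP and SMAD pathway, 16 (64.0%) had a promoter peak in all 6 lists, with the highest means at Smurf2 (10.2), a ubiquitin ligase of SMAD proteins, and Smad5 (10.1), a BMP-activated SMAD. Bmp5, a ligand, and Acvrl1, a receptor of endothelium, had none. Of the 8 bHLH genes of the HES and HEY family, several of which act downstream of Notch, 6 (75.0%) had a peak in all lists, and Hes6, which is not a Notch target and is known to oppose Hes1, had the highest mean fold (13.5), above those of all 7 members (5.57 at Id3 to 11.8 at Tcf3).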

How the data were processed

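Peak lists of ARID1B, FOXP1, and TCF7L2 ChIP-seq from E15.5 and E18.5 mouse cortex were used. Per the methods and the submitters' processing notes, the authors aligned reads with BWA 0.7.15 to mm10 and called narrow peaks against input, on merged replicates by the methods although each list is deposited with the first replicate, with MACS2 2.2.7, with a constant background and reads extended to 200 bp. The deposited lists give a score (not used), the ratio of summit reads to background (fold enrichment), and the −log10 p and −log10 q values of the authors' caller. Duplicate handling was not given in the sources used here. From the deposited ratios and p-values, background and summit reads were recovered by the Poisson model (100% of pairs within 0.01), tested on simulated data.

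Peaks on chromosomes 1 to 19, X, Y, and M were set against GENCODE vM21. At least 1 shared base counted as overlap. Samples were grouped by their labels, and the other TRs, the ATAC-seq and the human samples were not analysed here. No hypothesis test was made, since each TR and stage gave 1 list. Python 3.11.15, SciPy 1.17.1, and pysam 0.24.0 were used. The 7 genes and the lists were chosen with earlier results of these data known. Named were the members, neighbors with promoter peaks, the 3 most alike genes, and up to 4 genes per related list. The search for shared runs was chosen after seeing the windows. Other limits, list sizes, windows, promoters, and overlaps were tried.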

Additional observations from a re-analysis of the deposited data

How the results depend on the processing

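Of 142 values recomputed under another setting, 116 stayed within 1.5 times the reported count or within the 95% interval of the fold, and 26 moved. With a −log10 p of at least 15, the windows held 40, 47, and 33 peaks at E15.5 (ARID1B, FOXP1, TCF7L2), then 43, 16, and 40 at E18.5, and the Tcf4 window held 17, 16, and 9, then 19, 1, and 11. With lists cut to the size of the shortest, the windows held 37, 47, and 64 peaks, then 42, 46, and 63, and the Tcf4 window held 16, 16, and 23, then 19, 9, and 22, so the stage differences of TCF7L2 in the windows and at Tcf4, and that of FOXP1 in the windows as a whole, were not seen at equal length. Loci of all 3 TRs numbered 22 and 13 at E15.5 and E18.5 under the first setting and 25 and 21 under the second. Their share of the loci in the windows rose, from 26.8% and 16.4% to 40.7% and 24.1% under the first and to 37.9% and 28.8% under the second. The shares over all loci of the genome were not recomputed. These settings keep fewer peaks by construction, and under both of them the ARID1B promoter peaks of Id3 and Id4 were lost at each stage. With FOXP1 peaks limited to summits over background that the E18.5 list could hold, a setting chosen after seeing the data, Tcf4 had 38 at E15.5. Flanks of 25 or 100 kb, counting by summit, promoters of 1000 bp, coding transcripts, RefSeq TSSs, or an overlap of at least 50% of the shorter peak moved no count by over 1.5 times. No paired analysis was possible because there was 1 list per TR and stage, taken as merged from both replicates, and leaving out a replicate was not run for the same reason. The FOXP1 list at E18.5, scaled to a smaller input, limits what can be seen of weak FOXP1 peaks at that stage.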
